A study of Mus musculus with 6 samples.

Results

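The 10 genes described here are markers of endothelial cells, the cells that line blood vessels: Kdr, Tie1, Tek, Eng, Robo4, Pecam1, Cdh5, Esam, Vwf and Egfl7. They were chosen by symbol from the 19938 genes measured, and each had exactly 1 probe set that the platform annotation assigns to it alone. The RNA came from tumour-associated macrophages, cells sorted by flow cytometry out of hepa1-6 tumours that had been implanted in the liver of C57BL/6 mice. Hepa1-6 is a mouse hepatoma cell line. One group of mice received PLX3397, which blocks the receptor kinases CSF1R, FLT3 and KIT, and the other group received vehicle. Each group had 3 arrays (Affymetrix Mouse Gene 1.0 ST). No dose, duration or mouse age is given in the sources used here. Biological replicates are named in the titles, but no animals are, so a p-value here reflects the spread among the arrays, which may be technical. The description fields also name each sample after cultured macrophages (LPS with IFNγ for vehicle, IL4 for treated), which disagrees with the titles and was not used for grouping.

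Endothelial cells respond to vascular growth factors through receptor kinases of the VEGF and TIE families, hold to each other through adhesion molecules at their junctions, and secrete clotting and matrix proteins. Most of the genes are used to recognise endothelium, but several are also expressed in blood cells. Pecam1 is found on monocytes, neutrophils and platelets, Eng on activated macrophages, Vwf in megakaryocytes and platelets, and Tek on a subset of macrophages near vessels. In RNA pooled from a sorted population, more endothelial cells in the sort and more transcript per macrophage cannot be told apart.

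The markers did not all move together. Kdr, Pecam1, Vwf, Cdh5 and Eng rose in macrophages of PLX3397-treated mice, by 1.70, 1.60, 1.30, 1.03 and 0.59 on the log2 scale. Esam, Egfl7, Tie1 and Robo4 differed by 0.28, 0.24, 0.21 and 0.18 and did not pass the threshold, and Tek was not above background on any array. Thus 5 of 10 markers rose and 0 fell at an adjusted p under 0.05 (limma with Benjamini-Hochberg adjustment over all genes). Of all genes 37.8% were called, 19.6% higher and 18.3% lower, and of genes above background on all arrays of a group 26.8% were higher. Of the 10 markers, 4 had a called rise of at least 1 log2, against 3.21% of all genes. The median change of the markers was 0.44, against 0.04 over all genes. The change was above 0 for 10 of 10 markers (9 with arrays centred on their medians), against 57% of all genes, and the groups did not overlap, with PLX3397 higher, for 9 of 10, against 27.4% of all genes (49.3% in either direction). The members were chosen with results of these data known, so these counts are a description and carry no test of the list.

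**Figure D1:**
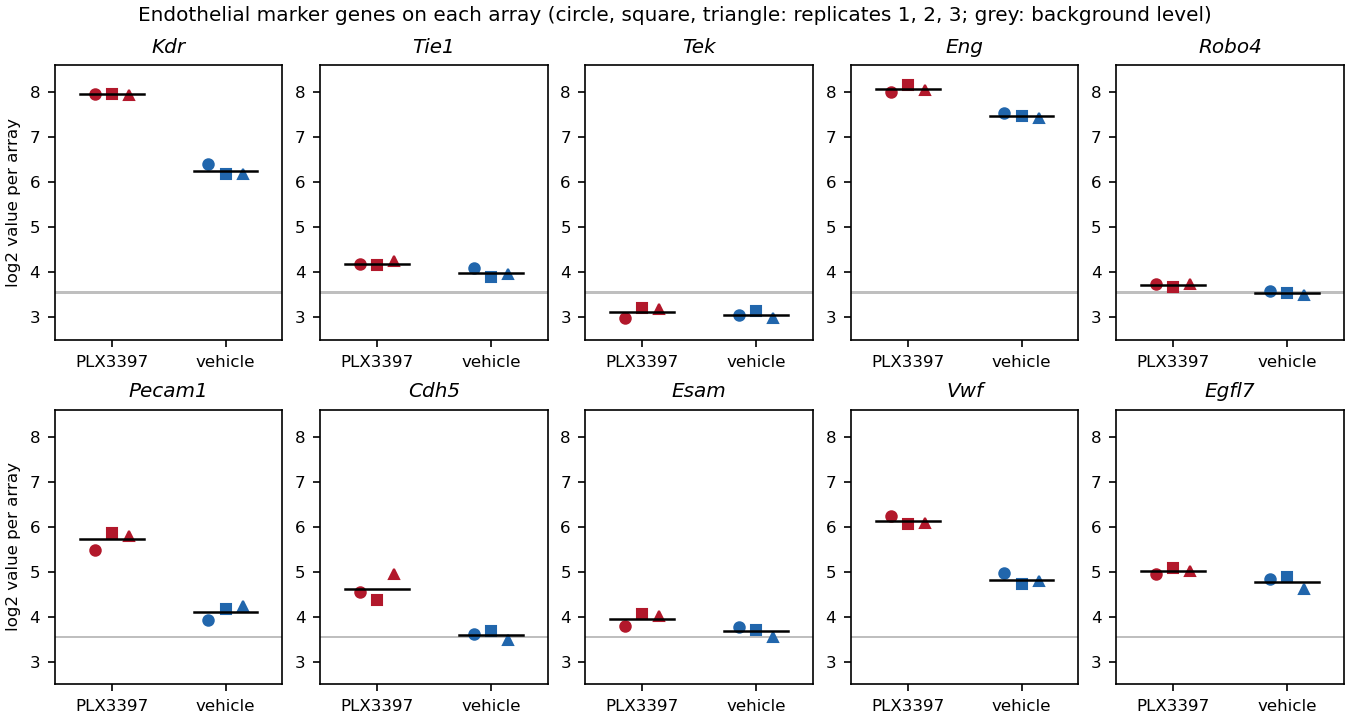
Log2 value (vertical axis, the same in every panel) of the 10 endothelial marker genes on each of the 3 PLX3397 arrays (red) and 3 vehicle arrays (blue). Symbols mark replicates, horizontal lines are group means and the grey band is the range of the background level over the 6 arrays. Kdr lies between 7.95 and 7.96 on PLX3397 arrays and between 6.17 and 6.41 on vehicle arrays, and all values of Tek lie below the band.

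The background level used throughout is the 95th percentile, on each array, of 1178 olfactory and vomeronasal receptor genes, which macrophages are not known to use. It lay between 3.56 and 3.58 on PLX3397 arrays and between 3.53 and 3.54 on vehicle arrays. By this level 9 of the 10 markers were above background on all 3 PLX3397 arrays and 7 on all 3 vehicle arrays. Macrophage genes were bright on the same arrays. Csf1r, the receptor for the macrophage growth factor, had values of 10.97, 11.18 and 11.003 on PLX3397 arrays and 10.94, 10.97 and 10.97 on vehicle arrays (change 0.09, SE 0.08, adjusted p = 0.441). Ptprc, the leukocyte marker CD45, was 0.51 lower (SE 0.09, adjusted p = 9.05e-04). Of 11 measured macrophage markers 2 rose and 5 fell, against 19.6% of all genes higher and 18.3% lower. Correlations across genes were at least 0.9916 within groups and at most 0.9612 between them.

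Among the receptors, Kdr (VEGFR2), the main signalling receptor for VEGF-A, changed the most. Its values were 7.96, 7.96 and 7.95 on the PLX3397 arrays, against 6.41, 6.17 and 6.18 on the vehicle arrays. The lowest PLX3397 array stood 1.54 above the highest vehicle array, and the PLX3397 arrays were close to each other. The rise of 1.70 (SE 0.09, limma adjusted p = 2.82e-07) corresponds to 3.26-fold and lay at percentile 98.6 of the changes of all genes.

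Tie1, an orphan receptor kinase that modulates TEK signalling, had values of 4.18, 4.16 and 4.25 with PLX3397, against 4.10, 3.90 and 3.97 with vehicle. All were above the background level, and the groups were apart by a margin of 0.06. The difference of 0.21 (SE 0.08, 95% confidence interval 0.02 to 0.39) did not pass after adjustment (adjusted p = 0.077). Tek (TIE2), the receptor for angiopoietins, had values of 2.998, 3.203 and 3.181 with PLX3397, against 3.06, 3.14 and 2.98 with vehicle. All 6 were below background and the groups overlapped, so no fold is given (adjusted p = 0.618).

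Eng encodes endoglin, a co-receptor for BMP9 and TGF-beta family ligands that works with the receptor ALK1. It had values of 8.002, 8.165 and 8.042 on the PLX3397 arrays, against 7.54, 7.46 and 7.43 on the vehicle arrays. The groups were 0.46 apart at their nearest arrays. The rise of 0.59 (SE 0.08, adjusted p = 2.39e-04) was the smallest of the 5 calls, at percentile 92.9 of all genes, and 1452 other genes had a centred 6-array profile within 0.15 log2 of it.

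Robo4, an endothelial member of the roundabout receptor family that stabilises vessels, was close to background, at 3.74, 3.67 and 3.74 with PLX3397 against 3.60, 3.54 and 3.49 with vehicle. The groups did not overlap, with a margin of 0.07, but 1 vehicle array was below background. The difference of 0.18 (SE 0.08, interval 0.0025 to 0.35) had an adjusted p of 0.106.

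Promoter sequences of 4 receptors follow, since Kdr and Eng rose, Tie1 did not pass and Tek was below background. Each runs from 250 bases before to 50 after an annotated start, 5′ to 3′ on the gene's strand, from RefSeq (GRCm38.p6). The motif GGAAG or its reverse complement CTTCC, which holds the core that ETS factors bind, is in capitals. The positions are chr5:75978406-75978705 (minus strand) for Kdr, chr2:32646345-32646644 (plus) for Eng, chr4:118489800-118490099 (minus) for Tie1 and chr4:94739039-94739338 (plus) for Tek.
Kdr: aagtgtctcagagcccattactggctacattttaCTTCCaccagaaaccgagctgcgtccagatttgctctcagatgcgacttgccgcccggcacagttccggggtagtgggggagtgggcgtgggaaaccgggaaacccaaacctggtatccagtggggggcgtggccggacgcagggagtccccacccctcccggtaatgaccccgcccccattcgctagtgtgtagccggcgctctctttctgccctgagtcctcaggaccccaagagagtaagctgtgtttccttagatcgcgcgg
Eng: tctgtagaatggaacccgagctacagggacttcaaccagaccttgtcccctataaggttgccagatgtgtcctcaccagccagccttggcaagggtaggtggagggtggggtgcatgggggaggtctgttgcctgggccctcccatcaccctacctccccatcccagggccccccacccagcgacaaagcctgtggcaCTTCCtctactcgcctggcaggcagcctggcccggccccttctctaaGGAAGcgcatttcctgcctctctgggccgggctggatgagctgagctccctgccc
Tie1: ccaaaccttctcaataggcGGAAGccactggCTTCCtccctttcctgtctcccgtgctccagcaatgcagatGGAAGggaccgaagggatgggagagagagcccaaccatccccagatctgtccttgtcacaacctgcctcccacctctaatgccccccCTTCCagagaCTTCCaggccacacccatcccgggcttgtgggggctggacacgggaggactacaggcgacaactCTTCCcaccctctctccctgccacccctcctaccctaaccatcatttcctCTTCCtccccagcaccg
Tek: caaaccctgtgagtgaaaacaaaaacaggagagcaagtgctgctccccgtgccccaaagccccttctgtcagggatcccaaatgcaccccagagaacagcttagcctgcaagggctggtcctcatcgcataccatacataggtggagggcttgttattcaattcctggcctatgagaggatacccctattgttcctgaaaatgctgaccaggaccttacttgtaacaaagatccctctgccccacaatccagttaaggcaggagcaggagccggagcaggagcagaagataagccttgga
The searched letters GGAAG or CTTCC occurred 1 time in the Kdr window, 2 times in that of Eng, 7 in that of Tie1 and 0 in that of Tek. Shorter or other forms of the core were not counted, so a window without these letters can still hold a core. RefSeq sequences were matched for 6 of the 10 markers, with 8 start sites in all, of which 6 held the motif, against 71.4% of 32851 promoter windows of the same length. The GC box GGGCGG, on either strand, occurred 2 times in the Kdr window and 0 times in the other 3, and is held by 35.7% of all windows. The GATA motif AGATAA occurred 1 time in the Tek window and 0 times in the other 3, against 11.2% of all windows, and the TATA box TATAAA in none of the 4, against 13.6%. Matches of different motifs did not overlap. The windows say only which letters they hold.

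The adhesion genes of endothelial junctions moved by different amounts. Pecam1 encodes CD31, a homophilic adhesion molecule at cell contacts. It had values of 5.48, 5.87 and 5.79 with PLX3397, against 3.91, 4.18 and 4.24 with vehicle. The groups were 1.25 apart at their nearest arrays, and the rise was 1.60 (SE 0.12, adjusted p = 3.76e-06), or 3.04-fold.

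Cdh5 encodes VE-cadherin, the adherens junction protein that is among the most specific of endothelial markers. It had values of 4.55, 4.37 and 4.94 on the PLX3397 arrays, against 3.61, 3.69 and 3.47 on the vehicle arrays, of which 1 was below background. The PLX3397 arrays were spread over 0.57 but lay above every vehicle array. The rise was 1.03 (SE 0.14, adjusted p = 1.67e-04) and was 0.87 without PLX3397 replicate 3, the array with the highest value.

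Esam, a tight junction protein of endothelium and platelets, had values of 3.78, 4.05 and 4.02 with PLX3397, against 3.77, 3.70 and 3.54 with vehicle. The lowest PLX3397 array and the highest vehicle array were 0.0072 apart. The difference of 0.28 (SE 0.10, interval 0.05 to 0.50) was just outside the threshold (adjusted p = 0.053), and it passed without PLX3397 replicate 1 (difference 0.36, adjusted p = 0.023).

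The secreted products differed in the same way. Vwf encodes von Willebrand factor, which tethers platelets to injured vessel walls. It had values of 6.23, 6.06 and 6.08 with PLX3397, against 4.96, 4.71 and 4.79 with vehicle. The nearest arrays of the groups were 1.10 apart, and the rise was 1.30 (SE 0.09, adjusted p = 2.55e-06), or 2.47-fold.

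Egfl7, a secreted matrix protein of growing vessels, had values of 4.95, 5.08 and 5.01 with PLX3397, against 4.84, 4.87 and 4.61 with vehicle. These values were above background on all arrays and 0.08 apart at the nearest. The difference of 0.24 (SE 0.09, interval 0.03 to 0.45) did not pass (adjusted p = 0.071). Egfl7 hosts the miRNA miR-126 in an intron, and its mature sequence from RefSeq (GRCm38.p6, chr2:26591402-26591423, plus strand) is given because the array has a probe set for this gene, with the seed, bases 2 to 8, in capitals.
mmu-miR-126a-3p: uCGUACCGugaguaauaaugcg
The Mir126a probe set had values of 2.38, 2.24 and 2.45 with PLX3397, against 2.336, 2.4999 and 2.389 with vehicle, all below background.

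**Figure D2:**
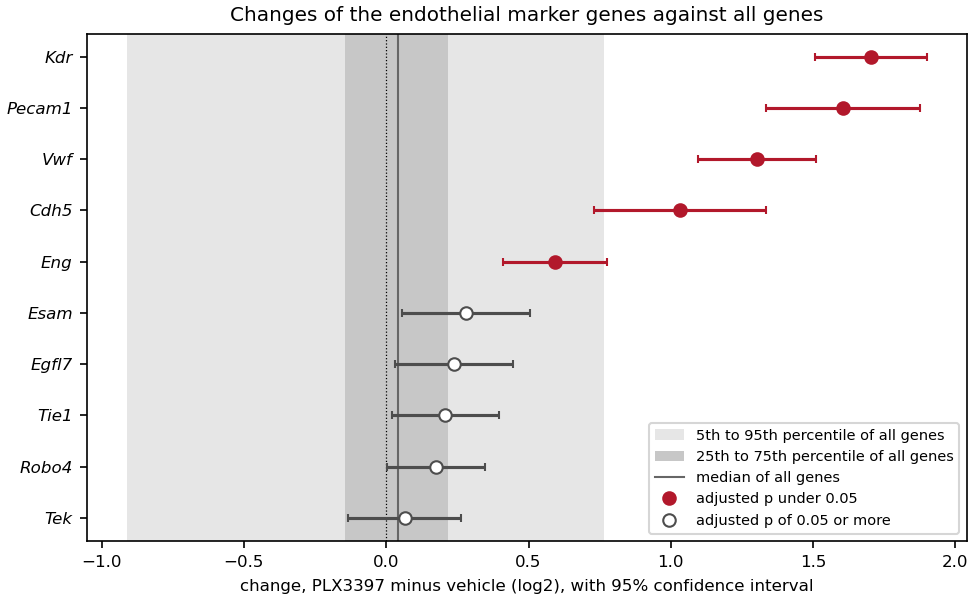
Change of each endothelial marker, PLX3397 minus vehicle (horizontal axis, log2), with its 95% confidence interval from the limma fit. Filled red points have an adjusted p under 0.05, open points do not, and grey bands and the line give the percentiles and the median of the changes of all genes. Changes run from 0.06 for Tek, which is below background, to 1.70 for Kdr.

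Differences between markers of like role were also taken within arrays, for 6 pairs. The difference Kdr minus Tie1 was 1.495 larger with PLX3397 than with vehicle, Pecam1 minus Esam 1.33 larger, Vwf minus Egfl7 1.06 larger, Cdh5 minus Esam 0.75 larger, Pecam1 minus Cdh5 0.57 larger and Eng minus Robo4 0.42 larger. The pairs and their order were chosen with these values known, and an exact permutation test of 3 arrays against 3 cannot give a p below 0.1, so the differences are a description with no test.

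No single PLX3397 array held the highest values throughout. PLX3397 replicate 1 had the highest value of the group for 2 markers, replicate 2 for 6 and replicate 3 for 2. The median of the 10 markers, as a difference from the vehicle mean, was 0.36, 0.53 and 0.46 on PLX3397 replicates 1, 2 and 3, and 0.06, 0.02 and -0.06 on the vehicle arrays. PLX3397 replicate 3 stood apart in other genes. Of 12 pericyte and smooth muscle markers 6 exceeded the mean of the other PLX3397 arrays by more than 1 log2 on it, led by Acta2 (8.79, against 6.94 and 7.01), and 0 of the 10 endothelial markers did, the highest being Cdh5 at 0.48. On the same array Postn, a stromal gene, was 1.94 above that mean and Cyp2e1, a hepatocyte gene, 2.40. Of 29 other pan-endothelial genes 5 were more than 0.5 above it, with Cav1 highest at 0.98. The others were Cd34 (4.43, against 3.66 and 3.48), Palmd (4.47, against 4.03 and 3.87), Emcn and Adgrl4. Emcn was at the background level and Adgrl4 below it. Some endothelial genes were thus also higher on this array, but not the lists as a whole. The median excess over the other PLX3397 arrays was 0.06 for the 29 genes and 0.06 for the 10 markers. As a difference from the vehicle mean, the median of the mural markers was 0.18, 0.06 and 0.95 on PLX3397 replicates 1, 2 and 3. Without replicate 3, 5 endothelial markers rose and 0 fell, with Kdr 1.71, Pecam1 1.57, Vwf 1.32, Cdh5 0.87 and Eng 0.61 higher.

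**Figure D3:**
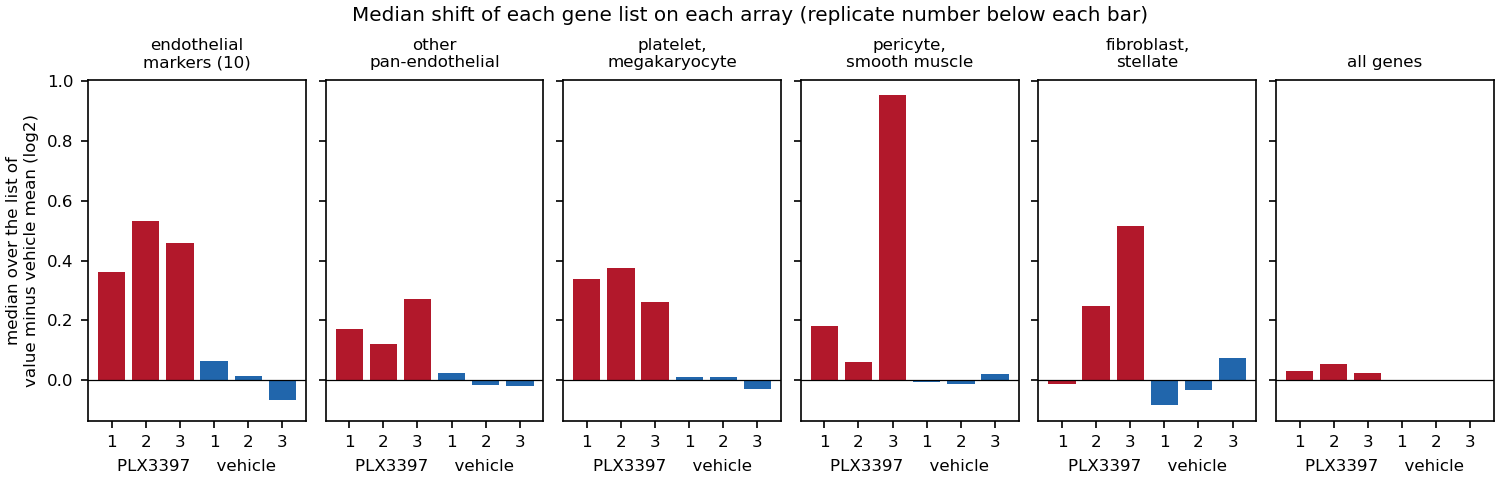
Median over each gene list of the value minus the vehicle mean of the gene (vertical axis, log2), for each PLX3397 array (red) and vehicle array (blue). The endothelial markers are at 0.36 to 0.53 on the 3 PLX3397 arrays, whereas the pericyte and smooth muscle list is at 0.95 on replicate 3 and at most 0.18 on the other PLX3397 arrays.

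Other genes expressed across endothelium moved in both directions. Of 29 measured pan-endothelial genes outside the 10 markers, 5 rose and 2 fell (8 rose without PLX3397 replicate 2), and the median change was 0.15, against 19.6% of all genes higher, 18.3% lower and a median of 0.04. The rises were those of S1pr1, a receptor for sphingosine 1-phosphate (0.69, adjusted p = 0.0094), Ramp2, a partner of the adrenomedullin receptor (0.48, adjusted p = 0.0088), Ptprb, a phosphatase that acts on TEK (0.39), the tight junction gene Cldn5 (0.33) and Myct1, which was below background with vehicle and at least 1.13-fold higher. The falls were those of Calcrl, the adrenomedullin receptor itself (-1.53, adjusted p = 1.97e-07), and Cd93 (-0.46). Mmrn2, Clec14a, Adgrl4, Esm1 and Gja4 were below background on all 6 arrays, as was Tek among the 10 markers. Emcn, a sialomucin of capillaries, reached the background level on 1 array, PLX3397 replicate 3. Its value there was 3.5642 and the level 3.5641. Ecscr, Icam2 and Nos3, 3 further genes of the list, were above background on all arrays and did not pass.

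Transcription factors of the endothelial programme rose in 14 of 26 cases and fell in 5, with a median change of 0.28. Of all genes 19.6% were higher and 18.3% lower. Once array medians had been set equal, 8 of the factors rose and 7 fell. Erg, an ETS factor known to bind the Cdh5 and Vwf genes, had values of 4.70, 4.54 and 4.69 with PLX3397, against 4.18, 3.79 and 3.73 with vehicle (0.74, SE 0.12, adjusted p = 7.10e-04). Sox7 and Sox18 rose by 0.56 and 0.28, and Sox17 was below background. Gata2, a zinc finger factor of endothelium, blood progenitors and mast cells, rose by 3.22 (adjusted p = 3.86e-07), and Ets2 by 1.15, Foxo1 by 0.89 and Tal1 by 0.78. Fli1 and Lmo2, which macrophages also express, fell by 0.68 and 0.65, and Mef2c fell by 0.78. The factors that rose ran from bright to below background on vehicle arrays. Gata2, Erg and Bcl6b averaged 4.21, 3.90 and 3.66 there, and Foxc2 and Nr2f2 were above background on none of these arrays. Ets2 averaged 9.08 on vehicle arrays, against 8.44 for Fli1 and 8.38 for Lmo2. Foxo1, Tal1 and Klf2 were above background on all vehicle arrays.

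Genes of the liver's own vessels were mostly dim. Of 21 genes of sinusoidal endothelium 7 rose and 1 fell, with a median of 0.13. Over all genes 19.6% were higher and 18.3% lower. The receptors Stab2 and Lyve1 had means of 3.66 and 3.41 with PLX3397 and of 3.54 and 3.55 with vehicle, with adjusted p of 0.353 and 0.365. Among genes that macrophages share, Mrc1 and Fcgr2b rose by 1.26 and 0.56 and Stab1 fell by 0.74. The other rises of the list included Kcnj8, Oit3 and Wnt9b, by 0.52, 0.45 and 0.42, all above background on all arrays. Adam23 was below background with vehicle and at least 1.30-fold higher with PLX3397. Clec1b also passed as higher, below background on all arrays. Of 7 lymphatic genes 1 rose, Pdpn (3.09, adjusted p = 4.23e-09), while Prox1, the defining lymphatic factor, was below background on all arrays.

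**Figure D4:**
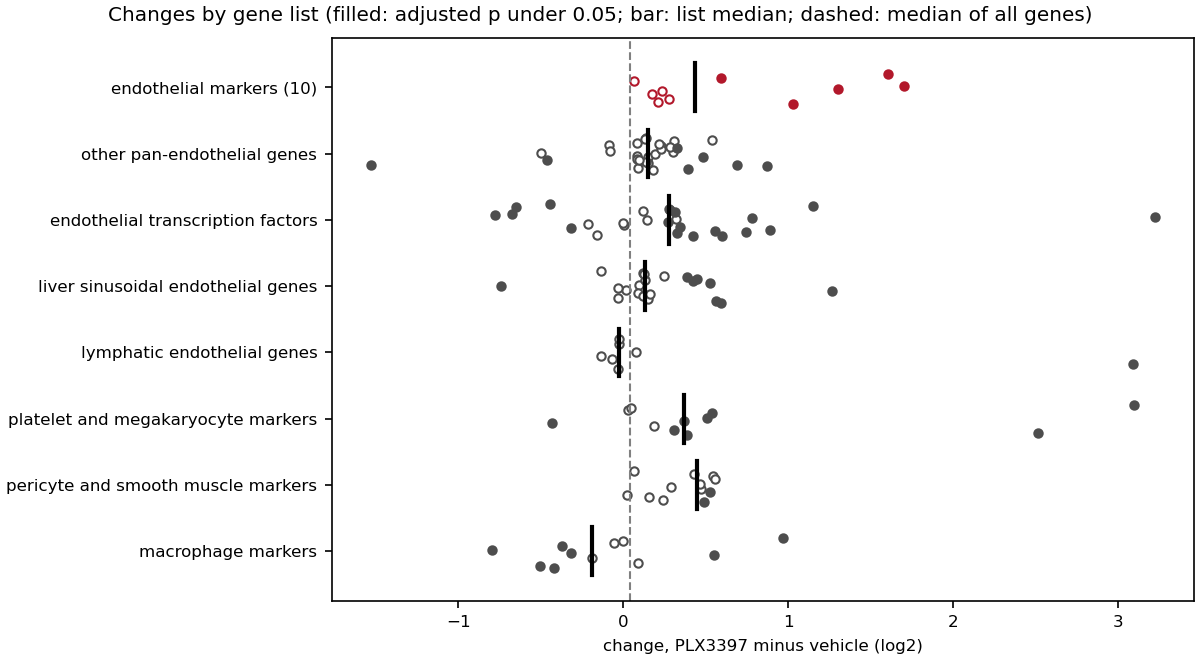
Change of every measured gene, PLX3397 minus vehicle (horizontal axis, log2), in 8 gene lists, with filled points for an adjusted p under 0.05, black bars for the list median and a dashed line for the median of all genes. The 10 endothelial markers lie between 0.06 and 1.70, and the other endothelial lists have genes on both sides of 0.

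The partners of the markers that rose were examined beside them. All counts of partners below are to be read against the 19.6% of all genes that were higher and the 18.3% that were lower. Around Kdr, 6 of 9 ligands, receptors and co-receptors rose and 0 fell. The ligand genes Pgf, Vegfc and Vegfa rose by 2.61, 1.79 and 1.59, and Nrp1, the VEGF co-receptor, by 1.66. Flt1 (VEGFR1), the paralogue of Kdr that macrophages express, had values of 5.64, 5.49 and 5.31 with PLX3397, against 4.13, 3.76 and 4.20 with vehicle (1.45, SE 0.13, adjusted p = 1.05e-05). Flt4 (VEGFR3) was below background.

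Around Tek and Tie1, 3 of 8 genes rose and 0 fell, and the ligand gene Angpt1 was below background on all arrays. Dok2, an adaptor that binds activated TEK and is also a haematopoietic gene, rose by 0.81. Around Eng, 6 of 21 genes rose (3 with arrays centred) and 7 fell, with a median of 0.03. Its partner receptor Acvrl1 (ALK1) rose by 0.52 (adjusted p = 0.0015), close in size to Eng itself, and its target genes moved both ways. Id3 and Smad6 fell by 2.87 and 1.23, Smad7 and Id2 rose by 0.93 and 0.33, and Id1 differed by 0.09 without passing (adjusted p = 0.397).

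Around Pecam1, Cdh5 and Esam, 12 of 19 junction genes rose and 4 fell, with a median of 0.33. The scaffold gene Tjp1 (ZO-1) had values of 6.76, 7.18 and 6.39 with PLX3397, against 3.42, 3.55 and 3.39 with vehicle, a rise of 3.32, and Jup (plakoglobin) rose by 2.19 and F11r (JAM-A) by 1.16. Around Robo4, 5 of 11 genes rose and 3 fell. The rises numbered 2 without PLX3397 replicate 1, 2 without PLX3397 replicate 3, 3 without any 1 vehicle array and 2 with arrays centred or quantile normalised. Its paralogue Robo2 fell by 1.60 and Robo1 rose by 0.57 (adjusted p = 1.86e-04). Around Egfl7, 3 of 11 genes rose and 3 fell. Jag1, a Notch ligand, rose by 1.83, and of 4 reported targets of miR-126, Vcam1, Crk and Spred1 fell by 1.17, 0.98 and 0.64, and Pik3r2 was 0.35 higher without passing (adjusted p = 0.062).

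Around Vwf, 6 of 14 measured genes of its storage bodies and binding partners rose and 2 fell (1 without vehicle replicate 2). Edn1, the vasoconstrictor endothelin 1, fell by 2.08, and Ece1, the enzyme that activates it, rose by 1.35. Platelets also carry Vwf, Pecam1 and Esam. Of 11 measured platelet and megakaryocyte markers 7 rose (4 with arrays centred) and 1 fell, with a median of 0.37. The shares over all genes were 19.6% higher and 18.3% lower. Itgb3 and Ppbp rose by 3.10 and 2.52, Itga2b by 0.51, and Tubb1 and Gp5 differed by 0.05 and 0.03 without passing. The summed level of this list was 11.88 to 12.27 on PLX3397 arrays and 11.21 to 11.28 on vehicle arrays. Its brightest gene was Pf4, which averaged 11.53 with PLX3397 and 10.99 with vehicle, followed by Ppbp (9.46 and 6.94). Clec1b was below background on all arrays, so the sum is no measure of the list as a whole. The part of platelets in the rises of the endothelial markers was not tested.

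Of 12 pericyte and smooth muscle markers 2 rose, Kcnj8 and Abcc9 (0.52 and 0.49), and 0 fell (1 without PLX3397 replicate 3). Over all genes 19.6% were higher and 18.3% lower. Of 12 fibroblast and stellate markers 3 rose, Ecm1, Hgf and Thy1, by 1.82, 1.71 and 0.46. The 2 that fell were the collagen genes Col1a1 and Col1a2, by 0.60 and 0.43. Without PLX3397 replicate 1, 6 rose, and 1 fell without PLX3397 replicate 1, PLX3397 replicate 2, vehicle replicate 2 or vehicle replicate 3. The summed level of the mural list was 8.42 to 9.65 on PLX3397 arrays and 8.28 to 8.51 on vehicle arrays. The mural list was highest on PLX3397 replicate 3, on which Cdh5 was also highest, and the changes of the 5 called markers without that array are given above. The part of mural and stromal cells in these rises was not tested.

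Lists for other cells that a sort could hold had counts of rises to be read against the 19.6% of all genes that were higher. Of 10 hepatocyte markers 1 rose, Trf (2.85), which macrophages also express, and the summed level of the list was 11.23 to 11.58 on PLX3397 arrays and 8.74 to 8.90 on vehicle arrays. Most of that sum was Trf, which averaged 11.30 with PLX3397 and 8.45 with vehicle. Alb, Ttr, Fgb and Ahsg were below background on all arrays and the list median was 0.09. Of 12 mast cell and basophil markers 3 rose, led by Hdc (3.59) and Gata2, with summed levels of 8.59 to 9.09 on PLX3397 arrays and 6.90 to 7.05 on vehicle arrays, and 8 were below background on all arrays, among them Cpa3, Fcer1a and Ms4a2. The list median was 0.03. Of 11 dendritic cell markers 6 rose, led by Ccr7 (3.35) and Itgax (3.04), with summed levels of 11.26 to 11.53 on PLX3397 arrays and 9.23 to 9.37 on vehicle arrays. The brightest were Itgax, which averaged 10.86 with PLX3397 and 7.82 with vehicle, and Irf8. Clec9a, Xcr1, Siglech and Itgae were below background on all arrays. Batf3, Zbtb46 and Flt3 were above it on all arrays. Batf3 and Zbtb46 rose by 0.45 and 0.39, and Flt3 did not pass. The list median was 0.30. Of 11 T, B and NK cell markers 2 rose, both below background, and 1 rose without PLX3397 replicate 1, PLX3397 replicate 2, vehicle replicate 1 or vehicle replicate 2. No marker of these 4 lists fell, except that with arrays centred 1 hepatocyte, 2 mast cell and 1 lymphocyte marker did. Their part in the rises of the endothelial markers was not tested.

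Genes with profiles over the 6 arrays nearest to those of the 5 called markers are named next. The measure is the root mean square difference between profiles, each centred on its own mean. Nearest to Pecam1 was Vegfa (0.05 log2), followed by the lipid phosphatase gene Plpp3 (0.06) and Pxdc1 (0.07). Nearest to Kdr were Lpin1 (0.06), Edem2 (0.07) and Pttg1ip (0.08), and nearest to Vwf the chemokine gene Ccl4 (0.06), Bri3bp (0.07) and Rara (0.07). Cdh5 had Aldh3b3 (0.08), Myo18b (0.10) and Ripor1 (0.10), and Eng had Gldc, Tapbp and Ctss, each at 0.03. Genes within 0.15 log2 numbered 46 for Kdr, 32 for Pecam1, 93 for Vwf and 17 for Cdh5. No marker was among the 3 genes nearest to another.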

How the data were processed

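The authors deposited 1 log2 value per probe set and array. No label states the log base, and base 2 was inferred from a range of 1.57 to 13.5. How probes were summarised and normalised is not given here, except that MAS5 is named, without version or role, per the submitters' processing notes. Array medians were 4.32 to 4.35 for PLX3397 and 4.21 to 4.25 for vehicle, so the values were used as deposited. Of 28941 probe sets, 21789 have exactly 1 symbol in the platform annotation, and the brightest per gene over the 6 arrays gave 19938 genes. Groups and replicate numbers came from the titles. Differences, PLX3397 minus vehicle, were fitted over all genes with limma 3.58.1 under R 4.3.3 (two-sided moderated test with treatment group alone in the design) with Benjamini-Hochberg adjustment and a threshold of 0.05, after the procedure was tested on simulated data. No filter on low values was applied. Where a gene was above background on no array of 1 group, the fold is a bound computed against the background level. The number of arrays limits the precision. Scanner files and dates were not used here, so batches could not be examined. The members, 21 further gene lists (293 of 312 memberships measured) and the alternatives were chosen with earlier results of these data known. Named genes are the 10 members, Csf1r, Ptprc, Flt1, the Egfl7 miRNA, up to 4 genes of each list with the largest called change whose groups did not overlap, and the 3 nearest profiles of each called member. Other list genes named, such as Erg, Emcn, Ecscr, Icam2, Nos3, Stab2 and Acvrl1, were chosen after their values were seen. Same-numbered arrays did not deviate together (correlations of -0.01, 0.01 and -0.01 over genes), so the main fit did not treat the numbers as pairs. With 3 arrays per group this cannot show that the samples were unpaired. Figures were drawn with matplotlib 3.10.9.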

Additional observations from a re-analysis of the deposited data

How the results depend on the processing

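The results were recomputed under 19 alternatives. Kdr, Pecam1, Vwf and Cdh5 were called higher in each alternative that tested them, with changes of 1.57 to 1.78, 1.47 to 1.72, 1.17 to 1.37 and 0.87 to 1.16. Eng (0.46 to 0.67) was called in all but the setting that also required 1 log2. Esam passed as higher in 3: among genes above background on all arrays of at least 1 group (adjusted p = 0.040), with robust variance (0.048) and without PLX3397 replicate 1 (0.023). Its adjusted p ran from 0.023 to 0.269. The number of members that rose was 5 or 6 without any 1 array, and 3 of the 3 tested with a mean level of at least 5. No member fell. Centring each array on its median moved the median of all genes to -0.09, against 0.04 as deposited, and the share of calls that were higher to 30.6%, against 51.7%. It gave 2282 higher and 5169 lower calls, against 3900 and 3639, a member median of 0.30, and -0.0696 for Tek, which reversed, below background. The member median was 1.03 over the 7 members with a mean level of at least 4, 1.30 over the 3 of at least 5 and 0.59 over the 9 above background, because dim members were left out, and 0.39 to 0.49 without any 1 array. With a change of at least 1 log2 required, 1445 genes and 39 genes of the other lists were called, against 7539 and 132. Higher calls over all genes were 2587 at a mean level of at least 5, 2475 at an adjusted p of 0.01 and 640 with at least 1 log2. Without any 1 array 6332 to 7101 genes were called, with 116 to 129 in the other lists. With the replicate number as a block 7154 genes were called, 5 members among them, and the block changed no member's call. Robo4, Tie1 and Egfl7 passed in no alternative.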

Other observations

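Procr encodes the endothelial protein C receptor, an anticoagulant receptor also found on blood stem cells. It had values of 11.24, 11.44 and 11.37 with PLX3397, against 7.35, 7.79 and 7.59 with vehicle, a rise of 3.77 (SE 0.11, limma adjusted p = 8.78e-09) that was larger than that of any of the 10 endothelial markers. It stood in a list of 15 measured blood progenitor markers, of which 4 rose and 2 fell. Over all genes 19.6% were higher and 18.3% lower. Kit rose by 1.08 and Cd48 fell by 1.72, and Mecom, Hlf, Myb and Cpa3 were below background on all arrays.

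Among 12 genes of macrophages near vessels, the group in which Tek has been described, 6 rose and 4 fell. The shares over all genes were 19.6% higher and 18.3% lower. Cd209f and Cd209g rose by 5.40 and 3.93, while Igf1 and Folr2 fell by 2.72 and 2.51.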
